A study of Mus musculus with 12 samples.

Results

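The genes described here are the cardiac myosin heavy chain genes *Myh6*, *Myh7* and *Myh7b* and the small gene model *Gm17428*, which is annotated on the opposite strand inside *Myh7*. They are 4 of the 33641 gene symbols in an expression table of mouse myocardium, and 13 of its 105129 transcript entries carry their names. The genes were picked by name with earlier results of these data in view. *Myh7* had been seen to be higher after infarction in vehicle-treated hearts, and *Gm17428* to be higher with prednisone after infarction, so those contrasts are given below as descriptions without a test.

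All 12 hearts came from male wild-type C57BL/6 mice, 3 per group, stated to be about 16 weeks old in one label and about 10 weeks old in the treatment description. They were operated on to give a myocardial infarction (MI) or sham-operated. From 2 weeks later they received weekly intraperitoneal injections, at the start of the light phase, of vehicle or of 1 mg/kg prednisone, a glucocorticoid diluted in PBS from a DMSO stock, for 6 weeks. The groups were thus sham with vehicle, sham with prednisone, MI with vehicle and MI with prednisone. Myocardium was taken 24 hours after the last injection. Which region of the ventricle or scar was sampled is not given in the sources used here. Values are TPM, a level of each transcript already divided by its length and scaled so that each library sums to 1000000, and a gene's level is the sum over its transcript entries.

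Myosin heavy chains are the motor proteins of the thick filament: their head domains hydrolyse ATP and pull on actin, and their tails pack into the filament. The adult mouse ventricle uses mainly the fast alpha chain, encoded by *Myh6*, whereas the slower beta chain, encoded by *Myh7*, is the main chain of the fetal ventricle and rises in many forms of cardiac stress. Thyroid hormone is known to favour *Myh6* over *Myh7*. *Myh7b* encodes a related, little translated chain. Each of the 3 genes carries a microRNA in an intron.

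*Myh6* (chr14:54941921-54966927, minus strand) and *Myh7* (chr14:54970684-54994626, minus strand) are neighbours, and *Myh7b* lies at chr2:155611212-155634307 on the plus strand, all in build GRCm38 of the GENCODE M21 annotation. The mature microRNAs, from RefSeq on GRCm38.p6, are shown because they tie the 3 host genes together by sequence. The seed, bases 2 to 8, is in capitals and each sequence runs 5′ to 3′. miR-208a-3p lies at chr14:54949072-54949093 in intron 29 of *Myh6*, miR-208b-3p at chr14:54975710-54975731 in intron 31 of *Myh7*, and miR-499-5p at chr2:155622893-155622913 in intron 19 of *Myh7b*, each on the strand of its host.
mmu-miR-208a-3p: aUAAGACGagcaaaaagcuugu
mmu-miR-208b-3p: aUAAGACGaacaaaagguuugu
mmu-miR-499-5p: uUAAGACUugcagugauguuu
The first pair share their seed and differ at 3 of 22 bases, and the seed of miR-499-5p differs from theirs at 1 of 7 bases. The levels of the microRNAs were not analysed here.

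*Gm17428* (chr14:54976933-54977025, plus strand) is a single exon of 93 bases, annotated as protein coding. It lies wholly inside intron 30 of the main *Myh7* transcript, 857 and 1557 bases from the nearest exons, and overlaps none of them. Its sequence is shown because it is a run of purines: A makes up 49.5% and G 49.5%, with a single C (in capitals) and no T.
Gm17428-201: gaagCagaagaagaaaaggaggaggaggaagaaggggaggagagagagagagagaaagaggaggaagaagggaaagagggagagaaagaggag
None of its 63 distinct 31-base words occurs in another M21 transcript on either strand, but 122 other transcripts share a 21-base word with it. An estimate over 93 low-complexity bases rests on few distinct reads, the submitters' use of strand in the quantification is not given in the sources used here, and its values are uncertain for both reasons.

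The alpha and beta chains are close copies. Over their coding sequences *Myh6* and *Myh7* are 91.4% identical, against 71.1% for *Myh6* and *Myh7b* and 71.4% for *Myh7* and *Myh7b*. Of the 6083 31-base words of the main *Myh6* transcript, 1966 (32.3%) also occur in the main *Myh7* transcript and 4 in that of *Myh7b*, and the longest identical stretch of the first pair is 245 coding bases. Reads from such stretches cannot be assigned by sequence alone, so levels of both genes carry an error that was not measured here. The 60-base coding window in which the chains are least alike, with 33 bases identical, is shown because such windows are what lets reads be told apart. Bases that differ are in capitals, and each sequence is given 5′ to 3′ on the coding, minus strand. The *Myh6* window is coding bases 3226 to 3285, across exons 24 and 25 (chr14:54952303-54952599), and the *Myh7* window is coding bases 3220 to 3279, across exons 26 and 27 (chr14:54980378-54982191).
Myh6 window: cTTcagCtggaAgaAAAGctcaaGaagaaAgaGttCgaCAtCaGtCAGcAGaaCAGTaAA
Myh7 window: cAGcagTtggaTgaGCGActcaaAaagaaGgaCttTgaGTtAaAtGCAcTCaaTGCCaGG

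Some features of the whole table touch the results. Libraries held 11690 to 14307 genes at 1 TPM or more, the most in MI vehicle replicate 3, and mitochondrially encoded transcripts made up 21.6% to 42.0% of the TPM. Read depth is not given by TPM and is unknown. Levels in the 3 MI prednisone hearts, relative to the sham vehicle mean, fell with transcript length across genes (Spearman rho -0.41 to -0.27, against -0.12 to 0.24 in the other 9 hearts). The main transcripts of the 3 myosin genes, at 6113 to 6163 bases, are long. *Gm17428* (93 bases) and the retained-intron forms Myh6-204 (511 bases) and Myh7b-203 (674 bases) are short. Changes were tested with limma on log2(TPM + 1) over 13158 genes with Benjamini-Hochberg adjustment, and "called" means an adjusted p below 0.05. The median log2 change over all tested genes was 0.39 for MI against sham under vehicle, -0.06 for MI against sham under prednisone, -0.41 for prednisone against vehicle after MI and 0.07 for the drug in sham hearts. Rescaling by the median ratio set those medians to 0.00, 0.01, -0.02 and 0.00, so that a member's change is best read beside them.

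The defining cardiomyocyte genes were abundant in every heart, with 7 markers summing to between 13763 TPM (an MI vehicle heart) and 21118 TPM (a sham prednisone heart). None of the 7 was at 0. All 3 MI vehicle hearts, at up to 17458 TPM, were below all 6 sham hearts, at 17898 TPM or more. In MI against sham under vehicle 2 of the 7 were called lower, beside 0.904% of all genes. The markers' median change there was -0.40, beside 0.39 over all genes. They did not all fall: *Mybpc3* averaged 611.4 TPM in sham vehicle and 769.3 TPM in MI vehicle hearts, and *Actc1* 5296 and 5222 TPM. MI prednisone hearts lay between 17211 and 18532 TPM. The part of this in the *Myh6* values below was not tested. The skeletal muscle heavy chains were near 0, and the 8 skeletal muscle markers together summed to 3.17 to 34.0 TPM over the 12 hearts. In bulk tissue, fewer cells of a type and less RNA per cell cannot be told apart.

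*Myh6*, the alpha chain, was the highest of the 4 genes in every heart. It stood at 2846, 3034 and 2933 TPM in sham vehicle replicates 1 to 3 and at 3031, 3485 and 3404 TPM in the sham prednisone replicates. After infarction it stood at 2242, 1959 and 1622 TPM with vehicle and at 2178, 2454 and 2681 TPM with prednisone. Every sham heart was above every MI heart, while the MI groups overlapped each other. Of all tested genes, 4.17% were lower in every MI than in every sham heart under vehicle and 32.2% under prednisone.

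*Myh6* fell after infarction in vehicle-treated hearts, from a mean of 2938 ± 94.3 to 1941 ± 310.4 TPM (SD, n = 3), 0.661 of the sham level (log2 change -0.61, SE 0.13, limma adjusted p = 0.0165). Falls were rare in that comparison: 0.904% of tested genes were called lower and 15.1% higher, 16% in all. The call was lost without sham vehicle replicate 1 (adjusted p = 0.063) or replicate 3 (0.0764), when only the 2 groups were fitted (0.102) and with 1 other of 22 settings, while the change ranged from -1.07, after median-ratio rescaling, to -0.49. With prednisone *Myh6* was also lower after infarction, at 2438 ± 252 against 3307 ± 242 TPM (log2 change -0.44, SE 0.13, adjusted p = 0.0373). There 14.1% of tested genes were called lower and 16.8% either way, and the *Myh6* call was lost under 15 of 22 alternative settings. With a correction for transcript length that change was -0.03 (adjusted p = 0.944).

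Between the infarcted groups, *Myh6* was 1.26-fold higher with prednisone, but the difference missed the threshold (log2 change 0.34, 95% interval 0.06 to 0.62, limma adjusted p = 0.0582). Median-ratio rescaling brought it past, at 0.80 (adjusted p = 0.0354), as did the length correction, at 1.01 (0.0149), and leaving out MI vehicle replicate 1, at 0.45 (0.0179). In sham hearts the drug difference was 0.17 (95% interval -0.11 to 0.45, adjusted p = 1). The drug effects after MI and after sham surgery differed by 0.17 (SE 0.18, adjusted p = 0.513).

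**Figure D1:**
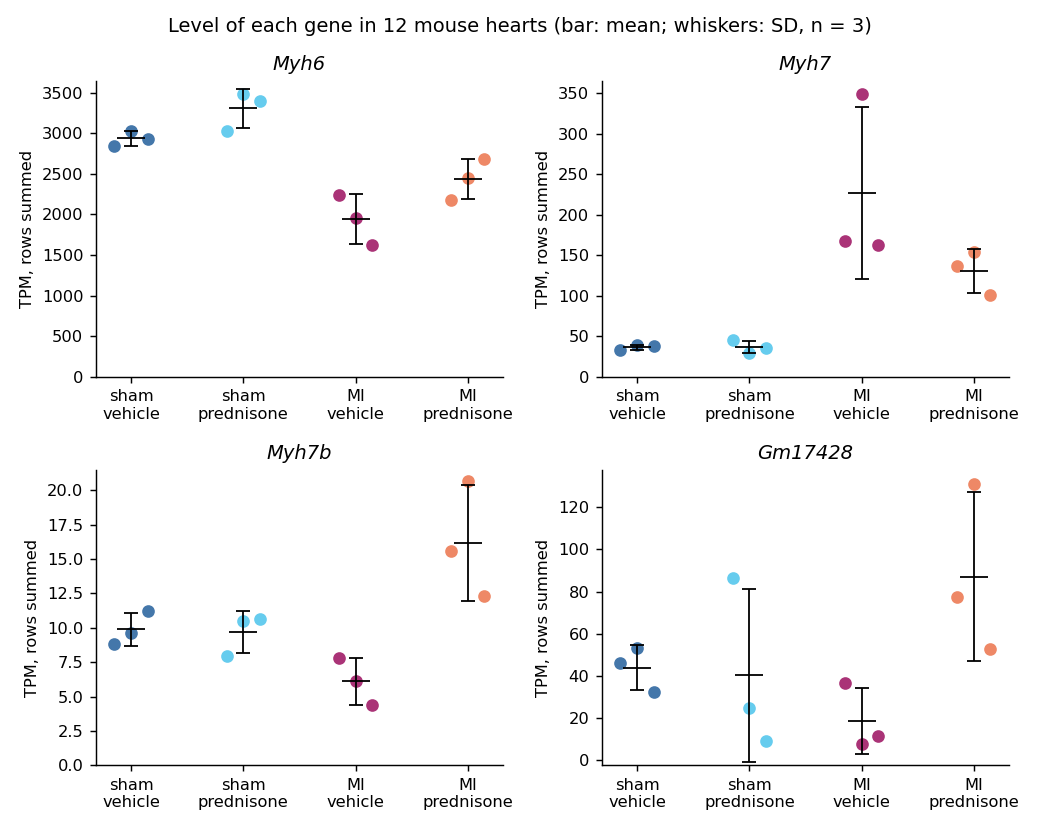
Level of each gene in TPM on linear axes by group, 1 point per heart, with the mean (long bar) and SD (whiskers) of 3 hearts. All 6 sham hearts lie above all 6 MI hearts for Myh6 and below them for Myh7, while Myh7b is highest in the 3 MI prednisone hearts and Gm17428 spreads from 8.97 to 86.6 TPM within the sham prednisone group alone.

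*Myh7*, the beta chain, was low in sham hearts. It stood at 32.6, 38.8 and 37.8 TPM in the sham vehicle replicates and at 44.7, 29.2 and 35.7 TPM in the sham prednisone replicates. In MI vehicle hearts it stood at 168.1, 349.0 and 162.5 TPM, and in MI prednisone hearts at 136.1, 154.1 and 101.1 TPM. No sham heart reached any MI heart, and MI vehicle replicate 2 was far above the other MI hearts. Of all tested genes, 40.8% were higher in every MI than in every sham heart under vehicle and 12.9% under prednisone.

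The contrast that chose *Myh7*, MI against sham under vehicle, went from 36.4 ± 3.34 to 226.5 ± 106 TPM (SD, n = 3), a ratio of means of 6.23 and a log2 change of 2.52 (SE 0.27). Median-ratio rescaling gave 2.06. In mice given prednisone, whose hearts did not enter that choice, *Myh7* rose after infarction from 36.5 ± 7.80 to 130.4 ± 26.9 TPM, or 3.57-fold (log2 change 1.81, SE 0.27, limma adjusted p = 0.00224). In that comparison 2.73% of tested genes were called higher. The *Myh7* call held in each of the 22 alternative settings, between 1.66 and 2.21.

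Prednisone and vehicle did not overlap for *Myh7* after infarction, and the means stood at 130.4 and 226.5 TPM, a ratio of 0.576. The difference was -0.72 on the log2 scale (SE 0.27), and 42.6% of all tested genes were lower in every prednisone heart than in every vehicle heart. The vehicle hearts in this difference are the ones whose high *Myh7* chose the gene, so it is given without a test. Without MI vehicle replicate 1 or replicate 3 it was -0.89 and -0.91. With median-ratio rescaling it was -0.26 and with the length correction -0.05. In sham hearts the drug difference of *Myh7* was -0.01 (95% interval -0.61 to 0.59, adjusted p = 1).

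The share of *Myh7* in the sum of *Myh6* and *Myh7* is a ratio within each library, which no rescaling of a library can move. It was 1.13%, 1.26% and 1.27% in the sham vehicle replicates and 1.45%, 0.830% and 1.04% in the sham prednisone replicates. In MI hearts it was 6.97%, 15.1% and 9.10% with vehicle and 5.88%, 5.91% and 3.64% with prednisone. All MI hearts were above all sham hearts, all MI prednisone hearts were below all MI vehicle hearts, and the sham groups overlapped.

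Under vehicle the share went from 1.22% ± 0.0786 to 10.4% ± 4.22 (SD, n = 3), a difference of 9.18 percentage points that is given without a test. Under prednisone it went from 1.11% ± 0.317 to 5.14% ± 1.30, a difference of 4.03 points and the smallest p that 3 against 3 hearts allow (exact two-sided permutation test, p = 0.1). After infarction the share with prednisone was lower by 5.26 points than with vehicle, at 0.494 of it. The vehicle hearts in that difference are those whose high *Myh7* chose the gene, so it is not independent of the choice and is given without a test. Without MI vehicle replicate 2 that difference was -2.90 points. In sham hearts it was -0.115 points (exact two-sided permutation test, p = 0.6), and 0.0236 without sham prednisone replicate 2. The adjustment ran over 3 comparisons, with prednisone against vehicle after infarction among them. It gave a Benjamini-Hochberg adjusted p of 0.15 for infarction under prednisone and 0.6 for the sham result.

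*Myh6* plus *Myh7* summed to 2974 ± 97.4 TPM in sham vehicle, 3343 ± 234.6 in sham prednisone, 2168 ± 335.7 in MI vehicle and 2568 ± 236.5 TPM in MI prednisone hearts (SD, n = 3). *Myh6* was the higher of the pair in every heart. Its level was 5.61 to 26.5 times that of *Myh7* in MI hearts and 67.8 to 119 times in sham hearts.

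**Figure D2:**
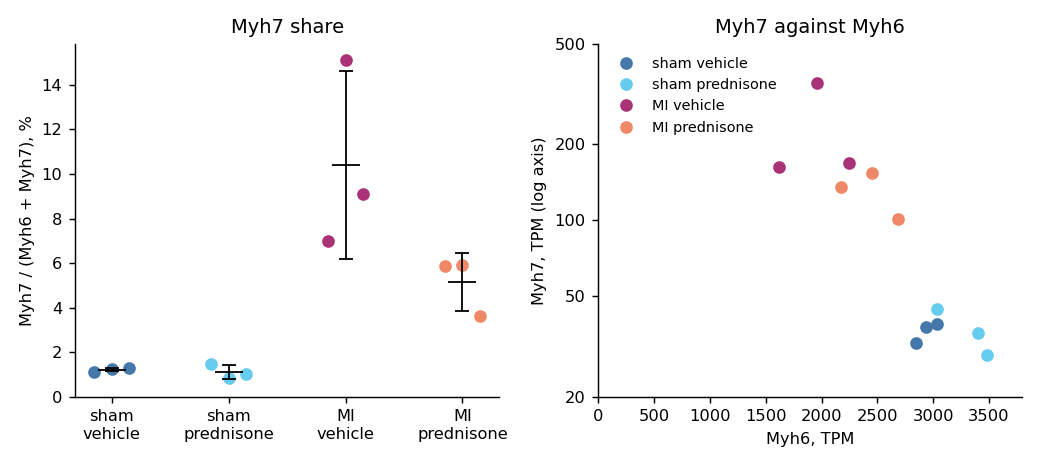
Left, Myh7 as a percentage of Myh6 plus Myh7 per heart, with the mean (long bar) and SD (whiskers) of 3 hearts. Right, Myh7 (log axis) against Myh6 (linear axis) in TPM, where the 6 sham hearts lie at high Myh6 and under 45 TPM of Myh7 and the 6 MI hearts at lower Myh6 and over 100 TPM of Myh7.

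*Myh7b* stayed at low levels. It stood at 8.82, 9.62 and 11.2 TPM in the sham vehicle replicates and 7.95, 10.5 and 10.6 TPM in the sham prednisone replicates. In MI hearts it stood at 7.83, 6.10 and 4.39 TPM with vehicle and 15.6, 20.7 and 12.3 TPM with prednisone. The MI vehicle hearts were the lowest 3 of all 12 and the MI prednisone hearts the highest 3, with no overlap with any other group. Of all tested genes, 3.59% were higher in every prednisone than in every vehicle heart after MI.

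*Myh7b* rose with prednisone after infarction, from 6.11 ± 1.72 to 16.2 ± 4.23 TPM (SD, n = 3), or 2.65-fold (log2 change 1.27, SE 0.22, limma adjusted p = 0.00206). In that comparison 37.4% of tested genes were called, 34.9% lower and 2.5% higher. The call held in each of the 22 alternative settings, between 0.92 and 1.84. In sham hearts the drug difference was -0.03 (95% interval -0.51 to 0.45, adjusted p = 1), and the drug effects after MI and after sham surgery differed by 1.30 (SE 0.31, limma adjusted p = 0.0163), where 0.54% of tested genes were called in that direction. Of the members only *Myh6* and *Myh7b* were tested for the difference between the drug effects, and *Myh7b* was called. The difference was -0.71 (SE 0.39) for *Myh7* and 3.01 (SE 1.01) for *Gm17428*, both given without a test.

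The infarction effect on *Myh7b* missed the threshold in both arms. Under vehicle it was -0.64 (SE 0.22, 95% interval -1.11 to -0.16, limma adjusted p = 0.0625), and it passed in 2 of 22 alternative settings, one of them without MI vehicle replicate 1, at -0.81 (0.0202). Under prednisone it was 0.66 (SE 0.22, 95% interval 0.19 to 1.14, adjusted p = 0.0583), and it passed in 4 of 22, without MI prednisone replicate 3, at 0.84 (0.0261), without MI vehicle replicate 1 (0.0409) or 3 (0.0211), and with only the 2 groups (0.0499).

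*Gm17428* differed widely between hearts of a group. It stood at 46.2, 53.2 and 32.3 TPM in the sham vehicle replicates and 86.6, 24.9 and 8.97 TPM in the sham prednisone replicates. In MI hearts it stood at 36.5, 7.43 and 11.6 TPM with vehicle and 77.2, 131.2 and 52.7 TPM with prednisone. The MI prednisone hearts were all above the MI vehicle hearts, but sham prednisone replicate 1 and sham vehicle replicate 2 lay within their range.

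The contrast that chose *Gm17428*, prednisone against vehicle after infarction, went from 18.5 ± 15.7 to 87.1 ± 40.2 TPM (SD, n = 3), a ratio of 4.70 and a log2 change of 2.37 (SE 0.72). Over the 22 alternative settings, the length correction among them, that change ranged from 1.92 to 3.00. The infarction effect was -1.47 under vehicle (SE 0.72, 95% interval -3.05 to 0.10) and 1.54 under prednisone (SE 0.72, 95% interval -0.04 to 3.12), and the groups overlapped in both. These effects use the MI hearts whose difference chose the gene and are given without a test. In sham hearts the drug difference was -0.64 (95% interval -2.21 to 0.94, adjusted p = 1).

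Relative to the gene that holds it, *Gm17428* is given as a description, since both contrasts that chose the genes enter the ratio. Per 100 TPM of *Myh7* there were 85.6 to 141.8 TPM of *Gm17428* in sham vehicle, 25.2 to 193.7 in sham prednisone, 2.13 to 21.7 in MI vehicle and 52.1 to 85.2 in MI prednisone hearts. The MI vehicle hearts were the lowest 3, and the sham prednisone range spanned that of the MI prednisone hearts. Across the 12 hearts the Pearson r of log2 levels between *Gm17428* and *Myh7* was -0.14, against 0.66 with *Myh7b*, and *Myh6* with *Myh7* gave -0.87. These correlations are descriptions over hearts that fall into groups.

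**Figure D3:**
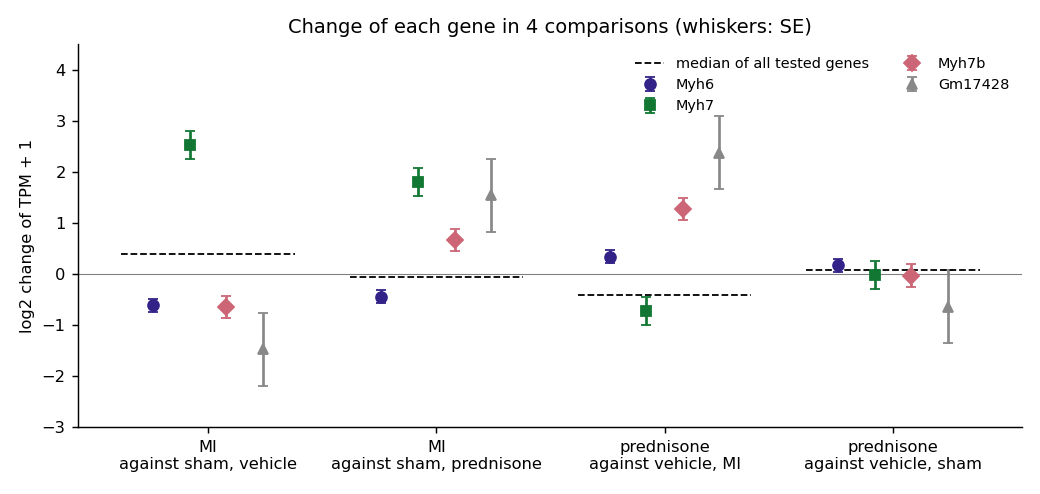
Log2 change of TPM + 1 for each gene in the 4 comparisons, with SE from limma (whiskers) and the median change of all 13158 tested genes (dashed line). After infarction Myh7 lies far above the median of all genes in both arms and Myh6 below it, and with prednisone after infarction Myh7b and Gm17428 lie above a median of -0.41.

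Among the contrasts that did not choose a member, the called ones were *Myh6* lower after infarction under vehicle and under prednisone, *Myh7* higher after infarction under prednisone, and *Myh7b* higher with prednisone after MI and in the difference of the drug effects. No member was called for the drug in sham hearts by limma, none had an unadjusted p under 0.05 there, and 0.114% of all genes were called. The sham groups overlapped for each of the 4 genes, against 18.2% of all genes for which they did not.

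Each myosin gene has a full-length transcript and shorter or retained-intron forms, whose estimates share most of their sequence and are therefore uncertain. Over 27769 tested transcripts, the share called was 2.84% for MI against sham under vehicle, 22.3% for the same under prednisone, 33% for prednisone against vehicle after MI and 0.054% for the drug in sham hearts. Myh7-201, the full-length beta chain transcript of 6135 bases, stood at 23.5, 22.9 and 23.1 TPM in sham vehicle hearts and 31.5, 17.2 and 23.6 TPM in sham prednisone hearts. It stood at 160.5, 341.7 and 157.1 TPM in MI vehicle hearts and 133.3, 143.1 and 92.7 TPM in MI prednisone hearts. Infarction under prednisone raised it by 2.32 on the log2 scale (SE 0.30, limma adjusted p = 0.000508), in 22 of 22 alternative settings.

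None of the other 3 *Myh7* forms was called by limma for MI under prednisone or for the drug in sham hearts. Myh7-201 made up 64.2% ± 7.14 of *Myh7* in sham vehicle, 65.3% ± 5.74 in sham prednisone, 96.7% ± 1.22 in MI vehicle and 94.2% ± 3.34 in MI prednisone hearts (SD, n = 3). Their changes under vehicle belong to the contrast that chose the gene and are given without a test. Myh7-203, a protein-coding fragment of 377 bases, averaged 8.18 TPM in sham vehicle and 4.12 TPM in MI vehicle hearts (log2 change -0.83). Under prednisone it averaged 8.12 TPM in sham and 3.96 TPM in MI hearts (-1.03, limma adjusted p = 0.0502). Myh7-204, of 6230 bases, averaged 4.38 and 1.70 TPM under vehicle (-0.99) and 3.76 and 2.35 TPM under prednisone (-0.67, limma adjusted p = 0.285). The retained-intron form Myh7-202 stayed under 1.5 TPM in every heart. Taking Myh7-201 and Myh6-201 alone, the *Myh7* share differed between MI and sham by 9.56 points under vehicle and by 4.16 points under prednisone.

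Myh6-201, of 6113 bases, held 96.9% to 99.0% of *Myh6* in the group means. It fell after infarction by 0.61 under vehicle (SE 0.13, limma adjusted p = 0.0326) and by 0.41 under prednisone (adjusted p = 0.0368), and it was higher by 0.36 with prednisone after MI (adjusted p = 0.0462). Each of these 3 calls was lost in 16 of 22 alternative settings, for example without sham vehicle replicate 1 (adjusted p = 0.109, 0.0537 and 0.0642). The retained-intron form Myh6-204 averaged 4.51 TPM in MI vehicle and 14.9 TPM in MI prednisone hearts (log2 change 1.47, adjusted p = 0.0118), a call that held in 21 of the 22. The short forms Myh6-202 and Myh6-203 fell after infarction under prednisone by 2.03 (adjusted p = 0.00207) and 1.49 (adjusted p = 0.00985), the second at no more than 3.30 TPM in any heart.

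One *Myh6* entry, ENSMUST00000134256.1, has no counterpart in M21, so its length and type were not analysed here. It stood at 39.9, 67.6 and 46.5 TPM in sham vehicle hearts and 61.9, 91.0 and 85.8 TPM in sham prednisone hearts. In MI hearts it stood at 65.1, 37.6 and 31.1 TPM with vehicle and 3.27, 4.10 and 14.1 TPM with prednisone. The 3 MI prednisone hearts were below all 9 others. The gene's total went the reverse way, higher in them than in MI vehicle hearts on average. Of all tested genes, 42.6% were lower in every prednisone than in every vehicle heart after MI. Under prednisone 32.2% were lower in every MI than in every sham heart. The like shares of transcripts were not analysed here. Prednisone lowered this entry after MI by 2.65 (SE 0.43, limma adjusted p = 0.00151). Its drug effects after MI and after sham surgery differed by -3.29 (SE 0.61, adjusted p = 0.00652), where 18.7% of tested transcripts were called. It made up 2.25% of *Myh6* in MI vehicle and 0.281% in MI prednisone hearts, so the gene's total hardly rests on it.

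*Myh7b* rose in both of its main forms. Myh7b-201, the full-length form of 6163 bases, stood at 4.71, 3.66 and 2.02 TPM in MI vehicle and 6.93, 10.4 and 6.02 TPM in MI prednisone hearts, a difference of 0.99 on the log2 scale (SE 0.24, adjusted p by limma = 0.0105). Myh7b-203, a retained-intron form of 674 bases, stood at 3.12, 1.74 and 1.16 TPM in MI vehicle and 7.22, 8.59 and 6.26 TPM in MI prednisone hearts (1.52, SE 0.26, adjusted p = 0.00192). The call of Myh7b-203 held in each of the 22 alternative settings, the length correction among them, between 0.82 and 1.92. The groups did not overlap for either form. Among all tested transcripts 8.21% were higher in every prednisone than in every vehicle heart after MI. Myh7b-203 was 31.6% of *Myh7b* in MI vehicle and 46.3% in MI prednisone hearts, and its drug effects after MI and after sham surgery differed by 1.74 (SE 0.37, adjusted p = 0.0111). For Myh7b-201 that difference was 1.00 (SE 0.34, adjusted p = 0.0642). The short noncoding form Myh7b-202, of 667 bases, was at no more than 2.54 TPM in any heart and was called in no comparison.

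**Figure D4:**
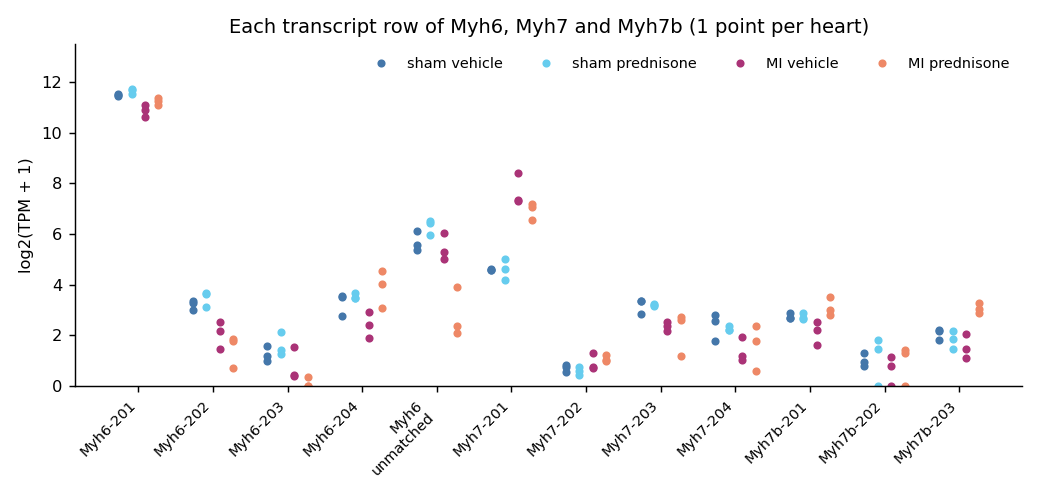
Each transcript entry of the 3 chain genes as log2(TPM + 1), 1 point per heart, coloured by group. Myh7-201 stands higher in every MI heart than in every sham heart, and the Myh6 entry without a counterpart in the annotation is lowest in the 3 MI prednisone hearts.

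The other myosin heavy chain genes are the skeletal, smooth muscle and non-muscle chains. Of 11 such genes, 4 passed the filter on low values (*Myh9*, *Myh10*, *Myh11* and *Myh14*). The non-muscle chains *Myh9* and *Myh10* rose after infarction under vehicle, by 1.04 (SE 0.28, limma adjusted p = 0.0335) and 0.70 (SE 0.15, adjusted p = 0.0161). Over all genes the median was 0.39 and 15.1% were called higher. *Myh9* fell with prednisone after MI, by 1.16 (SE 0.28, adjusted p = 0.00875), where 34.9% of all genes were called lower. After median-ratio rescaling *Myh10* was no longer called (0.30, adjusted p = 0.289), and with the length correction the fall of *Myh9* was not (-0.45, adjusted p = 0.0979). Without sham vehicle replicate 1 or 3 neither rise was called. No gene of the list was called by limma for MI under prednisone or for the drug in sham hearts. There 2 and 0 genes had an unadjusted p under 0.05, beside 4011 and 469 of all 13158 genes. For MI under prednisone 1 was called higher after median-ratio rescaling (1420 of all 13158 genes) and 2 with the length correction (647 of 13124). With prednisone after MI 1 of the 4 was called higher under either of these settings, beside 1887 of 13158 and 1159 of 13124 genes.

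Thick filament partners, the light chains, binding proteins, titin and the chaperones and ubiquitin ligases that assemble and turn over the filament, were split. Of 20 tested, 2 rose and 1 fell after infarction under vehicle (15.1% and 0.904% of all genes), 0 rose and 4 fell under prednisone (2.73% and 14.1%), and 4 rose and 3 fell with prednisone after MI (2.5% and 34.9%). *Ttn*, the giant spring titin, fell under vehicle by 0.67 (SE 0.20, limma adjusted p = 0.048), and the light chains *Myl6* and *Myl12a* rose by 0.86 (adjusted p = 0.0412) and 0.41 (adjusted p = 0.0333), neither of them called after median-ratio rescaling (0.40 and -0.05). Under prednisone the falls after infarction were in the ubiquitin ligase genes *Trim55* (by 0.69, adjusted p = 0.0233) and *Trim63* (by 0.57, adjusted p = 0.0152), the myosin light chain kinase gene *Mylk3* (by 0.56, adjusted p = 0.0171) and *Smyd1* (by 0.52, adjusted p = 0.023). None of these 4 was called after median-ratio rescaling or with the length correction, under which 2 and 1 other genes of the list rose and 0 fell. Of all genes, 1420 of 13158 rose after the rescaling and 647 of 13124 with the correction. With prednisone after MI the ventricular regulatory light chain *Myl2* rose by 0.59 (SE 0.13, adjusted p = 0.00618), and the atrial light chains *Myl7* and *Myl4* rose by 2.04 (SE 0.64, adjusted p = 0.0281) and 1.98 (SE 0.64, adjusted p = 0.0315). MI vehicle replicates 1 to 3 stood at 408.7, 64.0 and 450.4 TPM for *Myl7* and at 298.4, 49.9 and 383.8 TPM for *Myl4*. Replicate 2, low for both, is also the heart with the highest *Myh7*. *Trim55* fell with prednisone after MI by 0.54 (adjusted p = 0.0336). The list's median in that comparison was -0.01 beside -0.41 over all genes, and 0.43 after median-ratio rescaling. Under that rescaling 7 rose and 0 fell, beside 1887 and 1819 of all 13158 genes. With the length correction the rise of *Myl2* was not called (0.80, adjusted p = 0.0888) and those of *Myl7* and *Myl4* were. These counts moved with single hearts: leaving out 1 heart in turn gave 1 to 5 rises and 0 to 6 falls with prednisone after MI, and 0 to 2 rises and 0 to 6 falls for MI under prednisone. In the former the fewest came without MI prednisone replicate 2 (1 rise, 0 falls) and the most without MI vehicle replicate 3 (5 rises, 6 falls). Leaving out any 1 sham vehicle heart left no call for MI under vehicle, that of *Ttn* included.

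The summed atrial markers differed between the same groups. The 6 summed to 866 to 2548 TPM in sham vehicle, 2027 to 2746 in sham prednisone, 2836 to 4154 in MI vehicle and 4403 to 6242 TPM in MI prednisone hearts, with no marker at 0 in any heart. The higher sum in MI vehicle hearts came from *Nppa*, the stress-responsive natriuretic peptide gene, at 904.1 TPM in sham and 2706 TPM in MI hearts, and the list's median change there was -0.69 with 1 of 6 called. MI vehicle replicate 2 was far below replicates 1 and 3 for *Sln* (7.14 against 44.9 and 43.6 TPM) and *Mybphl* (3.90 against 22.6 and 31.5 TPM), as for *Myl7* and *Myl4*. Its sum of 2971 TPM was mostly *Nppa* (2840 TPM). With prednisone after MI 3 of 6 were called higher, beside 2.5% of all genes. The fibroblast and scar markers summed to 367 to 495, 417 to 496, 860 to 1115 and 317 to 552 TPM in the same order, with 6 of 6 called higher after infarction under vehicle, beside 15.1% of all genes, and 5 of 6 lower with prednisone after MI, beside 34.9%. Those counts were 3 and 5 after median-ratio rescaling (426 and 1819 of all 13158 genes) and 3 and 3 with the length correction (370 and 1002 of 13124). The macrophage markers summed to 25.3 to 33.4, 27.4 to 36.0, 48.6 to 77.8 and 22.0 to 32.0 TPM. The part of these shifts in the changes of the myosin genes was not tested.

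Regulators known to act on the choice of chain include thyroid hormone receptors and their partners, the MEF2, TEAD and GATA factors and corepressors. Of 26 tested genes of that list, 2 rose and 1 fell after infarction under vehicle (15.1% and 0.904% of all genes). Under prednisone 0 rose and 11 fell (2.73% and 14.1%), and with prednisone after MI 1 rose and 15 fell (2.5% and 34.9%). Without MI vehicle replicate 1, 9 rose after infarction under vehicle, where 5422 of all 13158 genes rose. The largest falls with prednisone after MI were *Sp3* (by 1.49, SE 0.28, limma adjusted p = 0.0029), *Mef2c* (by 1.40, SE 0.16, adjusted p = 0.000547), *Tead1* (by 1.38, SE 0.23, adjusted p = 0.00194) and *Mef2a* (by 1.09, SE 0.14, adjusted p = 0.000909). For MI under prednisone they were *Tead1* (by 1.48, adjusted p = 0.00245), *Mef2c* (by 1.36, adjusted p = 0.00117), *Mef2a* (by 1.15, adjusted p = 0.00127) and *Sp3* (by 1.04, adjusted p = 0.0264), each still called after median-ratio rescaling and with the length correction. With prednisone after MI the list's median was -0.67 beside -0.41 over all genes. There 9 fell after median-ratio rescaling (1819 of all 13158 genes) and 5 with the length correction (1002 of 13124). By the latter *Mef2c*, *Sp3* and *Mef2a* were still called and *Tead1* was not (-0.67, adjusted p = 0.0784).

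The thyroid hormone receptor genes, named here after their values were seen, showed no called change with infarction under vehicle, at 0.01 for *Thra* (adjusted p = 0.949) and 0.02 for *Thrb* (adjusted p = 0.921). Under prednisone they fell after infarction by 0.65 (adjusted p = 0.00369) and 0.78 (adjusted p = 0.0045), and these calls held with the length correction (-0.61 and -0.73) and after median-ratio rescaling (-0.56 and -0.73). With prednisone after MI they fell by 0.42 (adjusted p = 0.0133) and 0.61 (adjusted p = 0.00699). With the length correction the latter values were -0.01 (adjusted p = 0.97) and -0.19 (adjusted p = 0.324), and after median-ratio rescaling *Thra* changed sign, to 0.03 (adjusted p = 0.879). *Rxrg*, a retinoid X receptor that pairs with them, fell after infarction under vehicle by 0.53 (SE 0.11, limma adjusted p = 0.0172). That fall was not called without sham vehicle replicate 1 or replicate 3. *Rxrg* rose with prednisone after MI by 0.32 (SE 0.11, adjusted p = 0.042). With the length correction that rise of *Rxrg* was not called (0.64, adjusted p = 0.0561). *Dio2*, which activates thyroid hormone, is also named after its values were seen. It averaged 0.33 TPM in sham vehicle, 0.45 in sham prednisone, 3.28 in MI vehicle and 1.40 TPM in MI prednisone hearts. It passed the filter on low values only through the MI hearts. Its log2 change of 1.64 for infarction under vehicle, among the rises counted above, is therefore given without a test. With prednisone after MI it fell by 0.80, among the falls counted above, and its change was -0.13 with the length correction. The MI vehicle hearts that carried it past the filter enter this difference, so it is also given without a test.

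By the Pearson r of log2 levels over the 12 hearts, among 8115 genes averaging 5 TPM or more, each member's closest genes were found as a description. Among those nearest *Myh6* were *Rpl3l* and *Wnk2* (r = 0.97 and 0.96). Nearest *Myh7* were *Wisp2*, *Postn* and *Mfap4* (0.97, 0.97 and 0.96), the second of which is a scar marker. Nearest *Myh7b* were *Ndufa5*, *Ndufs6* and *Cox6c* (0.97 each), subunits of the respiratory chain. For *Gm17428* the highest values were lower, with *Lgals4* at 0.83 and *Smim20* and *Itga6* at 0.74. All 12 hearts share their groups in these values.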

How the data were processed

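RNA from myocardium of 12 mice had been made into stranded mRNA libraries, per the labels' protocols. The authors deposited TPM values per transcript. Trimmomatic, HISAT2, kallisto and build mm10 are named, without roles, in the submitters' processing notes. TPM holds no read depth, so counting error is unknown, and the deposited TPM moves for every gene when a few abundant transcripts change.

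Transcripts were summed by gene symbol. Genes and transcripts at 1 TPM or more in 3 or more samples were tested as log2(TPM + 1) with limma 3.58.1 in R 4.3.3, over 4 group means of all 12 samples, with Benjamini-Hochberg adjustment at 0.05. Fold changes on this scale understate the change of low genes. Intervals are 95% intervals. Annotation and sequences came from GENCODE M21, which matched 98.6% of transcript entries by identifier and 94.7% in the same version. The *Myh7* share was compared by exact permutation (scipy 1.17.1). The labels do not say that mice sharing a number are related, and same-numbered samples did not deviate together (mean r -0.37 to 0.00), so replicates were not paired.

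Members and lists were chosen with earlier results of these data known. All 4 members and their transcripts are named, and, per list and comparison, up to 4 called genes of largest change with a mean of 5 TPM or more. A few items that these rules would name are not reported here. The fit was also run on simulated data, and the outcome is not reported here. Alternatives covered rescaling, filter, pseudocount, trend, abundant transcripts, transcript length, blocking, the groups fitted and leaving out each mouse.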

Additional observations from a re-analysis of the deposited data

Results flagged for a closer look

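The effect of prednisone after infarction differed from its effect after sham surgery for the following genes and transcripts, by limma's interaction term on the log2 scale. *Myh7b* differed by 1.30 (adjusted p = 0.0163), its retained-intron transcript Myh7b-203 by 1.74 (0.0111), and the *Myh6* entry ENSMUST00000134256.1 by -3.29 (0.00652). Among the other myosin genes, *Myh9* differed by -1.29 (0.039), and among the thick filament partners *Myl12a* by -0.48 (0.0495). Among the regulators, *Tead1* differed by -1.79 (0.00845), *Sp3* by -1.72 (0.0149), *Mef2c* by -1.52 (0.00526) and *Ncor1* by -1.23 (0.0141). The median over all tested genes was -0.48 and 21.3% of them were called, 20.7% lower. After median-ratio rescaling *Mef2c* (-1.01, adjusted p = 0.0376) and *Sp3* (-1.22, 0.0252) were the only ones of these 6 listed non-member genes still called, *Myl12a* changed sign (0.07, adjusted p = 0.882), and with the length correction none of the 6 was called.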

How the results depend on the processing

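No depth is known, and 3 hearts per group limit every p. The count of genes called moved by more than 1.5 times in 47 of 109 alternative fits, most often for MI against sham under vehicle (15 of 22) and least for prednisone against vehicle after MI (4 of 22). For MI against sham under vehicle (2100; 1981 higher, 119 lower) it was 850 (426 higher, 424 lower) after median-ratio rescaling, 1068 with no filter, 741 with the length correction, 1056 with the replicate block, 95 with block and length correction and 2 when only the 2 groups were fitted. Leaving out single hearts gave 120 (without sham vehicle replicate 3) to 5631 (without MI vehicle replicate 1). For MI against sham under prednisone (2213; 359 higher, 1854 lower) it was 3344 (1420 and 1924) after rescaling, 3715 without mitochondrial and globin transcripts and 1018 with block and length correction, and 1027 to 3971 without single hearts (MI prednisone replicate 1, MI vehicle replicate 3). For prednisone against vehicle after MI (4917; 329 higher, 4588 lower) it was 3706 (1887 and 1819) after rescaling, 2161 with the length correction, 1442 with block and length correction and 808 with only the 2 groups, and 3245 to 6274 without single hearts (MI prednisone replicate 1, MI vehicle replicate 1). For the drug in sham hearts (15) it was 7 with the block, 6 with block and length correction and 4 to 18 without single hearts. For the difference of the drug effects (2797) it was 1141 after rescaling, 275 with the length correction, 98 with block and length correction and 1111 to 4520 without single hearts (sham vehicle replicate 1, MI vehicle replicate 1). The cause of these moves was not tested.

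The *Myh7* share kept its direction under the alternatives for the infarction contrasts and for prednisone after MI, with 6.82 to 10.9, 3.65 to 4.79 and -6.97 to -2.90 points without single hearts. In sham hearts it ranged from -0.288 to 0.0236. The replicate block left its differences as they were. It gave an exact sign-flip p of 0.25 for infarction under prednisone, the smallest that 3 pairs allow, and 0.75 for the drug in sham hearts. Reversed signs were seen for *Myh7* in the drug effect in sham hearts without sham vehicle replicate 2 (0.04) or 3 (0.02) or sham prednisone replicate 2 (0.14), and in the difference of the drug effects with the length correction, alone or with the replicate block (0.071 each). They were also seen in sham hearts for *Myh7b* without sham vehicle replicate 3 (0.06) or sham prednisone replicate 1 (0.094), and for *Gm17428* without sham prednisone replicate 3 (0.11). Without single hearts these drug effects in sham hearts ranged from -0.16 to 0.14 for *Myh7*, from -0.10 to 0.094 for *Myh7b* and from -1.45 to 0.11 for *Gm17428*. With the block, *Myh6* lost its call for MI under prednisone (adjusted p = 0.0701), as did Myh6-201 for all 3 of its calls (0.0768, 0.0697 and 0.0803), and with block and length correction *Myh7b* lost that for the difference of the drug effects (1.96, adjusted p = 0.0733). Alternatives for single transcripts and for the gene lists were chosen after seeing the data. Over single genes and transcripts, 642 alternative values kept their direction and side of the threshold. For some contrasts given without a test, the rule was instead to stay within the gene's residual SD of the main value. Another 70 lost a call, 14 gained one, 8 reversed sign and 2 moved beyond that SD.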
